A study of Mus musculus with 6 samples.

Results

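Cytokine receptors were followed in bone marrow of the mouse, as 36 genes that encode receptor chains for colony-stimulating factors, interleukins and interferons. They were taken from a fixed list of gene names and not by their values, and all 36 were found among the 20097 genes measured. The study sequenced poly-A RNA, in libraries that keep the strand, of bone marrow cells that carry the stem cell factor receptor c-Kit on their surface. It has 3 libraries of genotype WT and 3 of genotype Runx1 KO, a knockout of the blood transcription factor gene Runx1. The labels give no strain, age, sex or treatment, and do not say how Runx1 was disrupted, in which cells, or whether a library pooled animals. Each file held 23297526 to 26793380 reads after its scaling was undone, and values below are normalised read counts, that is, reads divided by a size factor for the library.

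Most receptors for these cytokines are built from a private chain, which binds the ligand, and a chain shared by several receptors, which carries the signal. The common beta chain serves GM-CSF, IL-3 and IL-5, the common gamma chain serves IL-2, IL-4, IL-7, IL-9, IL-15 and IL-21, and gp130 serves IL-6, IL-11 and LIF. Most of these chains bind Janus kinases that activate STAT proteins, whereas receptors of the IL-1 family signal through the adaptor MyD88 and the colony-stimulating factor 1 receptor is itself a tyrosine kinase. In bone marrow, such receptors are switched on and off as progenitors choose a lineage, so that their transcripts are often read together with lineage markers.

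Kit, the receptor used for the sort, was abundant in every library, with 7979 to 8471 normalised reads under the label WT and 11507 to 13684 under the label Runx1 KO. Cd34, a surface marker of progenitors, was also high, with means of 7717 and 10691. Runx1 itself, the targeted gene, was not reduced: it had 3031, 2799 and 3497 normalised reads in the WT libraries and 6648, 6720 and 5830 in the libraries labelled Runx1 KO (log2 change 1.04, SE 0.10, limma adjusted p 0.00163). Values per gene do not show whether the transcript lacked an exon, so groups are called by their labels and directions run from WT to Runx1 KO. Replicate 1 of the libraries labelled Runx1 KO lay between the other libraries of its group and WT on the first principal component, with a score of 22.8 against 60.8 and 64.5, and against -65.0 to -39.8 for WT. With bulk RNA, fewer cells of a type and less RNA per cell cannot be told apart.

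All 36 receptor genes passed the filter on low values and were tested with limma over 15410 genes. Under the label Runx1 KO, 8 of them rose and 9 fell at an adjusted p under 0.05, where 10.6% and 11.3% of all tested genes did. With library totals as scaling, 9 were higher and 8 lower, and the share of higher genes among all calls was 63.5% in place of 48.4%. Together this is 17 of 36 (47.2%) against 21.9% of all tested genes, and 19 of 36 had groups that did not overlap, against 43.3% of all tested genes. The median log2 change was -0.12 over the receptors and -0.0042 over all tested genes, with receptors running from -5.12 for Il2ra to 1.80 for Il12rb1. By family, limma called 5 of 5 chains of the IL-1 family, 6 of 10 of the common gamma chain family and its relatives, 4 of 6 of the interferon and IL-10 family, 1 of 5 of the common beta chain family, 1 of 7 of the gp130 and IL-12 family, and 0 of 2 among the receptors for CSF-1 and G-CSF, for which the count was also 0 at an unadjusted p under 0.05 and in edgeR and DESeq2. Without Runx1 KO replicate 2 the number of called receptors was 8 (5 higher, 3 lower), and without WT replicate 1 it was 11 (6 higher, 5 lower). Without Runx1 KO replicate 3, 7 were higher and 5 lower.

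**Figure D1:**
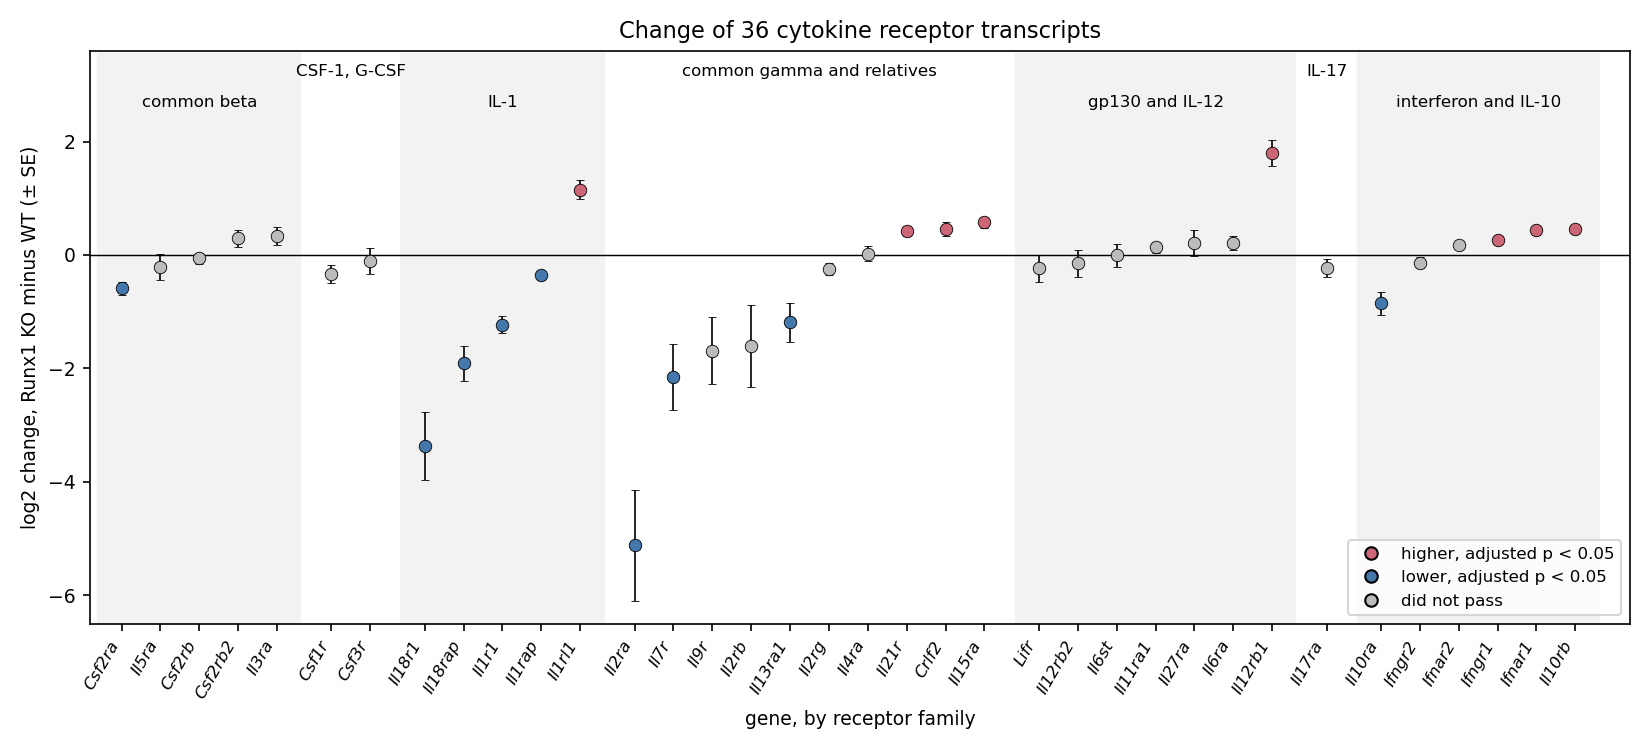
Log2 change of each of the 36 receptor transcripts, Runx1 KO minus WT, on the y axis, grouped on the x axis by receptor family; points are limma estimates from 3 libraries a group, bars are the SE, and colour marks the direction of genes past an adjusted p of 0.05. The IL-1 family has 4 genes below 0 and Il1rl1 above it, and the common beta chain family and the gp130 and IL-12 family lie near 0 apart from Csf2ra and Il12rb1.

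In the IL-1 family, 4 chains fell and 1 rose. Il18r1 and Il18rap, the binding and accessory chains of the receptor for IL-18, both fell, as did Il1r1, the signalling receptor for IL-1, and Il1rap, the accessory chain shared by the IL-1 and IL-33 receptors. Il1rl1, which encodes the IL-33 receptor ST2, rose.

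Il18r1 had 368, 222 and 129 normalised reads in the WT libraries and 48.1, 16.8 and 9.95 in the libraries labelled Runx1 KO. The lowest WT library was above every library labelled Runx1 KO, and Runx1 KO replicate 1 was the highest of its group. The log2 change was -3.37 (SE 0.60, limma adjusted p 0.0103), and the means of 239.5 ± 121 and 24.97 ± 20.3 (SD, n = 3) differed 9.59-fold. Il18rap had 3225, 2003 and 1394 normalised reads under WT and 707, 549 and 436 under Runx1 KO, again without overlap and with replicate 1 highest in both groups (log2 change -1.91, SE 0.31, limma adjusted p 0.00776). Its transcript was the more abundant of the pair per kilobase of exon, at 327 ± 138 against 49.7 ± 25.1 for Il18r1 under WT. Lymphoid cells of the T, NK and innate type are known carriers of the IL-18 receptor. Of 12 markers of those cells, 1 was called, Nkg7, which was lower. That share, 8.3%, was below the 21.9% of all tested genes that were called. The summed level of the 12 markers was 7175 to 8032 under WT and 4693 to 5355 under Runx1 KO. Nkg7 made up 78.2% of that sum under WT. The sum of the other 11, taken after these values were seen, was 1509.5 to 1759.9 under WT and 1605, 555 and 530.1 under Runx1 KO, so that replicate 1 of the latter lay within the WT range. The part of those cells in the fall of the IL-18 receptor was not tested. Without Runx1 KO replicate 1 the log2 change of Il18r1 was -3.98, and without Runx1 KO replicate 3 it was -2.89.

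Il1r1 was at 422, 319 and 332 normalised reads under WT and at 160.0, 159 and 134 under Runx1 KO, a tight pair of groups that did not overlap (log2 change -1.23, SE 0.15, limma adjusted p 0.00331). Il1rap fell less, from 1119, 1138 and 999.5 to 871, 877 and 784 (log2 change -0.36, SE 0.08, limma adjusted p 0.0247). The call of Il1rap was lost when WT replicate 1 or 2 or Runx1 KO replicate 2 or 3 was left out, with an adjusted p up to 0.085. Per kilobase of exon, Il1r1 was at 0.50 to 0.674 of Il1rap under WT and at 0.306 to 0.328 under Runx1 KO.

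Il1rl1 moved the other way, from 533, 673 and 632 normalised reads under WT to 1091, 1325 and 1722 under Runx1 KO. Every library labelled Runx1 KO was above every WT library, and replicate 1 was the lowest of its group (log2 change 1.15, SE 0.17, limma adjusted p 0.00618, means 2.25-fold apart). ST2 is known from mast cells, basophils and group 2 innate lymphoid cells. Among 9 tested markers of mast cells and basophils, 6 were called, all lower (66.7%, where 11.3% of all tested genes were lower). The summed level of that list was 12670 to 17224 under WT and 9754 to 12144 under Runx1 KO. Prss34, a basophil protease, was at 2899 ± 1062 and 3.73 ± 1.63 normalised reads (SD, n = 3). In contrast, Hdc, Cpa3 and Cd200r3 of the same list were at log2 changes of 0.31, 0.40 and 0.57 and were not called. The part of these cells in the rise of Il1rl1 was not tested. Per kilobase of exon, Il1rl1 was at 0.785 to 1.04 times Il1rap under WT and at 2.06 to 3.62 times under Runx1 KO.

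All of these genes except Il1rap, which is on chromosome 16, lie with 2 relatives in a cluster on chromosome 1, which spans 478 kb from Il1r2 to Il18rap (GRCm38, GENCODE M21). All 6 receptor genes of the cluster are on the plus strand, and Il1r1 (ENSMUSG00000026072) is at chr1:40225080-40317257. Il1r2, a decoy receptor for IL-1, fell by 3.52 on the log2 scale (SE 0.65, limma adjusted p 0.0118), from 1352, 455 and 378 normalised reads to 128, 30.7 and 36.8. Il1rl2, the receptor for IL-36, had a log2 change of -0.51 and was not called (limma adjusted p 0.0626); it was named after its values were seen. Il1rl1 (ENSMUSG00000026069, chr1:40429570-40465415) thus lies between a neighbour that was not called and one that fell. Its annotated end lies 0.136 kb before the annotated start of Il18r1 (ENSMUSG00000026070, chr1:40465552-40500854), and Il18rap (ENSMUSG00000026068, chr1:40515362-40551705) begins 14.5 kb after the end of Il18r1. Reads running past an annotated end were not examined, and values per exon were not analysed here.

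**Figure D2:**
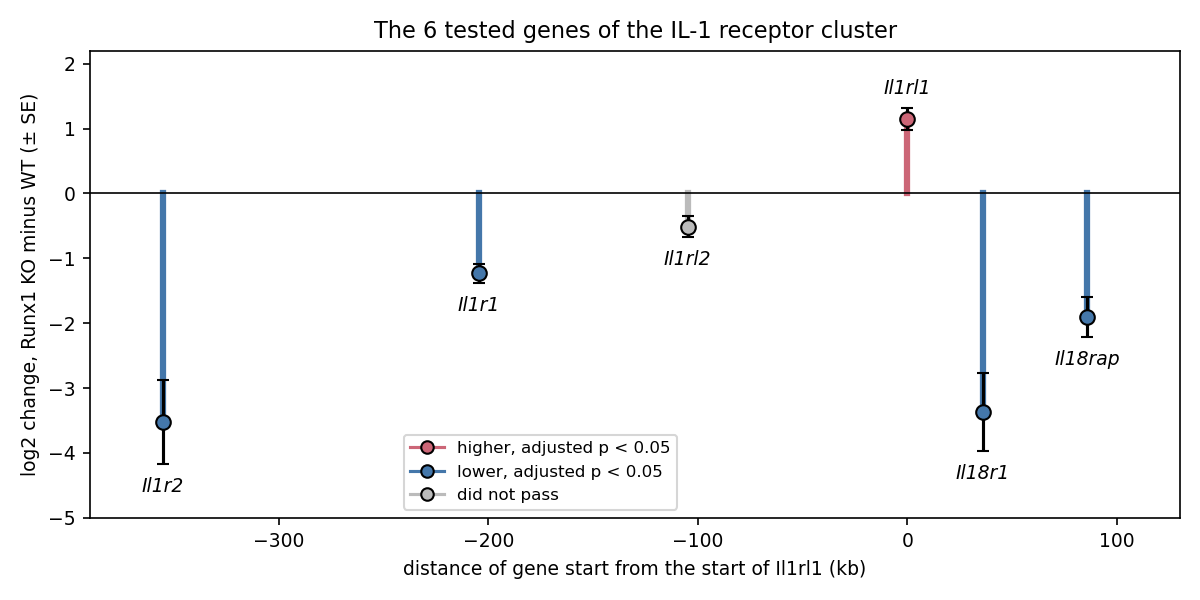
The 6 tested genes of the IL-1 receptor cluster, with the distance of each gene's start from the start of Il1rl1 in kb on the x axis and the log2 change, Runx1 KO minus WT, on the y axis; bars around the points are the SE of limma. Il1rl1 stands at 1.15 with Il18r1, at -3.37, next to it.

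Promoter windows of the 3 neighbours at the end of this cluster are shown because these genes moved in opposite directions over a short distance. The sequences come from RefSeq on GRCm38.p6 and run 5′ to 3′ on the plus strand, in windows of 300 bases around a transcript start, most of them before it. Capitals mark a match to the RUNX cores TGTGGT or TGCGGT or to the GATA core AGATAA on either strand. For Il1rl1 there are 2 annotated starts, and for Il18r1 the window is trimmed to the bases after the end of Il1rl1. Another 2 windows of Il18r1 held no match to any of the 3 motifs.

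Il1rl1, upstream start (chr1:40429320-40429619): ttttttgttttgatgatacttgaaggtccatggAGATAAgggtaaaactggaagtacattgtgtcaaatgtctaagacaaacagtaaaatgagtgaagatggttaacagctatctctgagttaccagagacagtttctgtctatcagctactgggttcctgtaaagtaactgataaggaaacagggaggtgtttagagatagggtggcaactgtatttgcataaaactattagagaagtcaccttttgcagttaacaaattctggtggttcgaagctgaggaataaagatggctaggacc
Il1rl1, downstream start (chr1:40439379-40439678): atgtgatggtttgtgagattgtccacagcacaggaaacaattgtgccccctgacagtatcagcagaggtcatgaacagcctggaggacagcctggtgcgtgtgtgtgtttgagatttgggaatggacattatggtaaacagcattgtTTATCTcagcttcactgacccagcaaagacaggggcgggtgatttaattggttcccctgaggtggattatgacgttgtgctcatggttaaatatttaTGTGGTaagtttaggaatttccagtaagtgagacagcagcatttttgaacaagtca
Il18r1 (chr1:40465416-40465670): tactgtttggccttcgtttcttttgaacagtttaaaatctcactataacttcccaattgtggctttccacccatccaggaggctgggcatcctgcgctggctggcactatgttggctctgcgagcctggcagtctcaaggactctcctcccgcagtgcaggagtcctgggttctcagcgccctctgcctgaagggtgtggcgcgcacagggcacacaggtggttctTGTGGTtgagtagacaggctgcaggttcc
Il18rap (chr1:40515112-40515411): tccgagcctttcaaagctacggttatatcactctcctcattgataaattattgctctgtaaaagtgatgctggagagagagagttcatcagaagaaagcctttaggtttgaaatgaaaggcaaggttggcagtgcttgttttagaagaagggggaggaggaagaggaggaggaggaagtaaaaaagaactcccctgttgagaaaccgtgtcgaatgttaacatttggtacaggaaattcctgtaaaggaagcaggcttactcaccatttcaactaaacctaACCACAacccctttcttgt

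A RUNX core lay in the window of the downstream start of Il1rl1, of Il18r1 and of Il18rap, so it was present beside a transcript that rose and beside transcripts that fell. Windows were found for 28 of the 36 receptor genes. Of their 35 windows, 11 (31.4%) held TGTGGT or TGCGGT, against 22.4% of 32851 mouse promoter windows of the same length, and 5 (14.3%) held AGATAA, against 11.2%. Other called receptors with a RUNX core were Il2ra, Il7r, Il21r and Crlf2, the first 2 of which fell and the last 2 of which rose. A match is a string of letters and does not show that a factor binds there.

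In the common gamma chain family and its relatives, 3 chains fell and 3 rose. The losses were Il2ra, the high-affinity chain for IL-2, Il7r, the IL-7 receptor needed by lymphoid progenitors, and Il13ra1, which pairs with Il4ra to form the type II IL-4 and IL-13 receptor. The gains were Il15ra, which presents IL-15, Il21r, the IL-21 receptor, and Crlf2, the private chain of the receptor for TSLP.

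Il2ra (ENSMUSG00000026770, chr2:11642807-11693193) had the largest change of the 36 receptors, with 591, 102 and 205 normalised reads under WT against 24.1, 4.96 and 0.995 under Runx1 KO. The groups did not overlap but each was wide, with replicate 1 highest in both (log2 change -5.12, SE 0.98, limma adjusted p 0.0133). Recovered reads of Il2ra under Runx1 KO were 23, 5 and 1, so the size of this change rests on few reads. Over the alternative settings with all libraries it ran from -5.32 to -4.30. Leaving out a library gave log2 changes of Il2ra from -6.08, without Runx1 KO replicate 1, to -4.25, without Runx1 KO replicate 3, and without Runx1 KO replicate 2 the adjusted p was 0.0526. Il7r (ENSMUSG00000003882, chr15:9505788-9530176) had 704, 189.7 and 407 normalised reads under WT and 178, 59.5 and 56.7 under Runx1 KO (log2 change -2.15, SE 0.58, limma adjusted p 0.0399). WT replicate 2 was close to Runx1 KO replicate 1, and the call of Il7r was lost when WT replicate 1 or 3 or Runx1 KO replicate 2 or 3 was left out (adjusted p up to 0.13) and in limma-voom (0.0577).

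Lymphoid precursors carry both of these chains. The summed level of B-lymphoid markers was 33295, 7574 and 12243 under WT and 3402, 1199 and 1217 under Runx1 KO. Among these 10 markers, 7 were called, all lower (70%, where 11.3% of all tested genes were lower). WT replicate 1 was highest and WT replicate 2 lowest for Il2ra, for Il7r and for the B-lymphoid sum, and Runx1 KO replicate 1 was the highest of its group for all 3. This order was not particular to them. Csf1r, Il17ra and Il6st, which were not called, had it as well, though not every receptor did. The part of B-lymphoid cells in these falls was not tested.

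Il13ra1 (ENSMUSG00000017057, chrX:36112110-36171259) had 711, 429.9 and 707 normalised reads under WT and 433, 214 and 195 under Runx1 KO. It passed the test (log2 change -1.19, SE 0.34, limma adjusted p 0.0451) although WT replicate 2 and Runx1 KO replicate 1 had nearly the same value, and it did not pass in edgeR on recovered reads (adjusted p 0.0598) or with library totals as scaling (0.0509). The call of Il13ra1 was also lost when WT replicate 1 or 3 or Runx1 KO replicate 2 or 3 was left out (adjusted p up to 0.144). Its partner Il4ra was not called, with 2702, 2158 and 2117 normalised reads under WT and 2707, 2296 and 2069 under Runx1 KO (log2 change 0.02, SE 0.13, adjusted p 0.927). Per kilobase of exon, Il4ra was at 1.85 to 3.11 times Il13ra1 under WT and at 3.87 to 6.63 times under Runx1 KO.

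Il15ra (ENSMUSG00000023206, chr2:11705290-11734317) rose from 467, 523 and 501 normalised reads to 782, 784 and 663 (log2 change 0.58, SE 0.10, limma adjusted p 0.009), and Il21r (ENSMUSG00000030745, chr7:125603429-125633570) from 935, 776 and 882 to 1149.6, 1195 and 1136 (log2 change 0.43, SE 0.09, limma adjusted p 0.0151). Neither gene's groups overlapped. Without Runx1 KO replicate 2 the adjusted p of Il21r was 0.0707. Crlf2 (ENSMUSG00000033467, chr5:109554709-109558993) had 702, 603 and 766 normalised reads under WT and 1100.5, 891 and 860.3 under Runx1 KO (log2 change 0.46, SE 0.13, limma adjusted p 0.0446), and its call was lost whichever of the 6 libraries was left out, with an adjusted p from 0.0531 to 0.117. The TSLP receptor needs Crlf2 and Il7r together: per kilobase of exon, Il7r was at 0.101 to 0.322 of Crlf2 under WT and at 0.0211 to 0.0518 under Runx1 KO.

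The remaining 4 chains of this family and its relatives, Il4ra among them, were not called. Il2rg, the common gamma chain, had 1207, 1092 and 1204 normalised reads against 1083, 1046 and 838, without overlap but without a call (log2 change -0.25, adjusted p 0.149); 30.5% of its exon bases also belong to the annotated gene Gm20489, so its count is uncertain. Il2rb, the beta chain of the IL-2 and IL-15 receptors, split the libraries labelled Runx1 KO. It had 691, 609 and 803 normalised reads under WT, 847 in Runx1 KO replicate 1, and 145 and 97.5 in replicates 2 and 3. With all libraries the log2 change of Il2rb was -1.60 (SE 0.73) and did not pass (adjusted p 0.155); without Runx1 KO replicate 1 it was -2.54 (adjusted p 0.00159). Some markers of other lymphoid cells, named after their values were seen, split these libraries in the same way. Ncr1, an NK cell receptor, was at 100.4, 11.9 and 9.95, and Cd3g, a T cell receptor component, at 131, 16.8 and 8.95. Nkg7 of the same list was lowest in replicate 1, at 3750, 4463 and 4163. Gata3 and Cd4 differed less, at 151, 100.1 and 102 and at 351, 160 and 235. Siglech, a marker of plasmacytoid dendritic cells, was at 331, 27.7 and 17.9. In the same dendritic cell list, Zbtb46 was at 236, 307 and 499 and Tcf4 at 2003, 1730 and 1763. The part of such cells in the values of Il2rb was not tested. Il9r, the IL-9 receptor, was scarce, at 20.8, 16.1 and 24.0 against 14.6, 4.96 and 1.99 (adjusted p 0.0818), and passed without Runx1 KO replicate 1 (log2 change -2.32, adjusted p 0.0131).

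**Figure D3:**
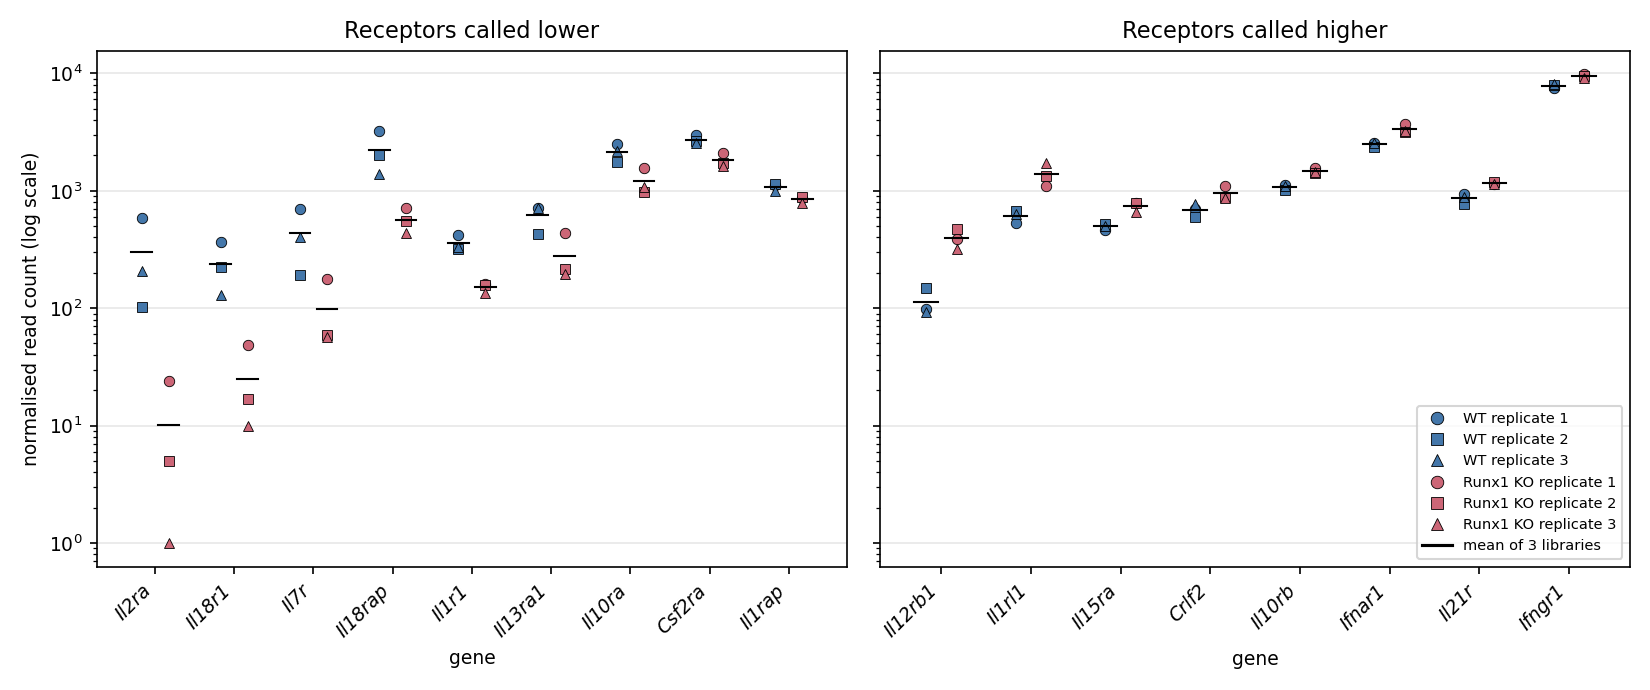
Normalised read count of the 17 called receptors in each library on a log scale, with the 9 called lower on the left and the 8 called higher on the right; symbols give the replicate number, colours the group and black lines the mean of 3 libraries. Runx1 KO replicate 1 (circles) is the library of its group closest to the WT mean for 8 of the 9 lower receptors.

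Across the 9 receptors called lower, Runx1 KO replicate 1 was the library nearest the WT mean for 8, a share of 88.9%, where it was so for 64.6% of all genes called lower. Across the 8 called higher it was nearest for 1 (12.5%), against 45.2% of all genes called higher. Without it, 7 receptors were called higher and 12 lower, and 16 of the 17 calls were shared.

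Receptors for interferons and IL-10 showed small gains with narrow spread and 1 loss. Ifnar1 (ENSMUSG00000022967, chr16:91485238-91507441), a chain of the type I interferon receptor, had 2561, 2342 and 2560.1 normalised reads under WT and 3681, 3193 and 3235 under Runx1 KO (log2 change 0.44, SE 0.08, limma adjusted p 0.00967). Il10rb (ENSMUSG00000022969, chr16:91406164-91425834), a chain shared by the receptors for IL-10, IL-22 and type III interferon, had 1119.9, 1007 and 1097 against 1573, 1405 and 1441 (log2 change 0.45, SE 0.08, limma adjusted p 0.00843). Ifngr1 (ENSMUSG00000020009, chr10:19591949-19610229), the binding chain for interferon gamma, had 7467, 7944 and 8078 against 9841, 9461 and 9051 (log2 change 0.27, SE 0.06, limma adjusted p 0.02). None of these 3 genes had overlapping groups, and Ifnar1 and Il10rb stayed called whichever library was left out, whereas Ifngr1 lost it without WT replicate 1 and without Runx1 KO replicate 2.

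Ifnar2 and Ifngr2, the partners of Ifnar1 and Ifngr1, were not called. Ifnar2 had 2019, 1844 and 2022 normalised reads under WT and 2301, 2193 and 2171 under Runx1 KO (log2 change 0.18, adjusted p 0.0822), and passed with library totals as scaling (0.0351) and under no other alternative run. The ratio of Ifnar1 to Ifnar2 per kilobase of exon was 0.710 to 0.712 under WT and 0.816 to 0.896 under Runx1 KO. Ifngr2 had 1677, 1470.2 and 1532 against 1632, 1319 and 1325 (log2 change -0.14, adjusted p 0.374). Per kilobase of exon, Ifngr1 was 5.89 to 7.15 times Ifngr2 under WT and 7.98 to 9.49 times under Runx1 KO. Ifnar2 and Il10rb share 9.46% and 14.9% of their exon bases with Gm21970, an annotated gene that overlaps both, so reads there could be split between genes.

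Il10ra (ENSMUSG00000032089, chr9:45253837-45269149), the binding chain for IL-10, was the chain of this family that fell, from 2509.8, 1744 and 2181 normalised reads to 1553, 968 and 1077 (log2 change -0.85, SE 0.20, limma adjusted p 0.0254). With Il10rb rising, the ratio of Il10ra to Il10rb per kilobase of exon was 1.88 to 2.44 under WT and 0.750 to 1.07 under Runx1 KO. The call of Il10ra was lost without WT replicates 1 or 3 and without Runx1 KO replicates 2 or 3 (adjusted p up to 0.0874). Monocytes and macrophages are rich in Il10ra. Among 10 markers of those cells, 5 were called, all lower (50%, where 11.3% of all tested genes were lower). Their summed levels were 56765 to 75731 under WT and 28358 to 47347 under Runx1 KO. The part of those cells in the fall of Il10ra was not tested.

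Ifnar2, Il10rb, Ifnar1 and Ifngr2 lie together within 193 kb on chromosome 16, and the nearest of them, Ifngr2, ends 1036 kb before the annotated span of the targeted gene Runx1. Around Runx1, itself not counted, 11 of 44 tested genes within 2000 kb (25%) were called, against 21.9% of all tested genes, with a median log2 change of -0.055. Of the 44, 7 were higher, Ifnar1 and Il10rb among them, and 4 lower, where 10.6% and 11.3% of all tested genes were. The share called in either direction near Runx1 was thus close to that of all tested genes.

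The largest gain of the 36 receptors was that of Il12rb1 (ENSMUSG00000000791, chr8:70808449-70821424), the chain shared by the receptors for IL-12 and IL-23. It had 97.9, 149 and 92.1 normalised reads under WT and 389, 468 and 319 under Runx1 KO, with means 3.47-fold apart and no overlap (log2 change 1.80, SE 0.23, limma adjusted p 0.00358). It stayed called whichever library was left out. Its partner in the IL-12 receptor, Il12rb2, had 142, 148 and 184 normalised reads against 178, 161 and 99.5 (log2 change -0.15, adjusted p 0.682). Per kilobase of exon, Il12rb1 was 0.462 to 0.931 of Il12rb2 under WT and 2.02 to 2.97 times Il12rb2 under Runx1 KO. The value of Il12rb2 is uncertain, since 40.0% of its exon bases overlap Serbp1 on the opposite strand and whether counting used the strand is not given in the sources used here.

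None of the other chains of the gp130 and IL-12 family passed. Il6st, which encodes gp130, was at 1951 ± 372 and 1952 ± 485 normalised reads (SD, n = 3; log2 change -0.01, SE 0.20). Il6ra, the IL-6 binding chain, was at 4077 ± 669 and 4700.4 ± 487 (log2 change 0.21, adjusted p 0.273). Il11ra1 and Il27ra, the private chains for IL-11 and IL-27, had log2 changes of 0.14 and 0.21, and Lifr, a chain of the LIF receptor, had -0.24. For Il11ra1, 46.3% of its 50-base words also occur in the transcripts of another gene, Gm13305, so its count may be split. Il17ra, the widely expressed IL-17 receptor chain, was at 5568 ± 1114 and 4681 ± 590 (log2 change -0.24, adjusted p 0.321).

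**Figure D4:**
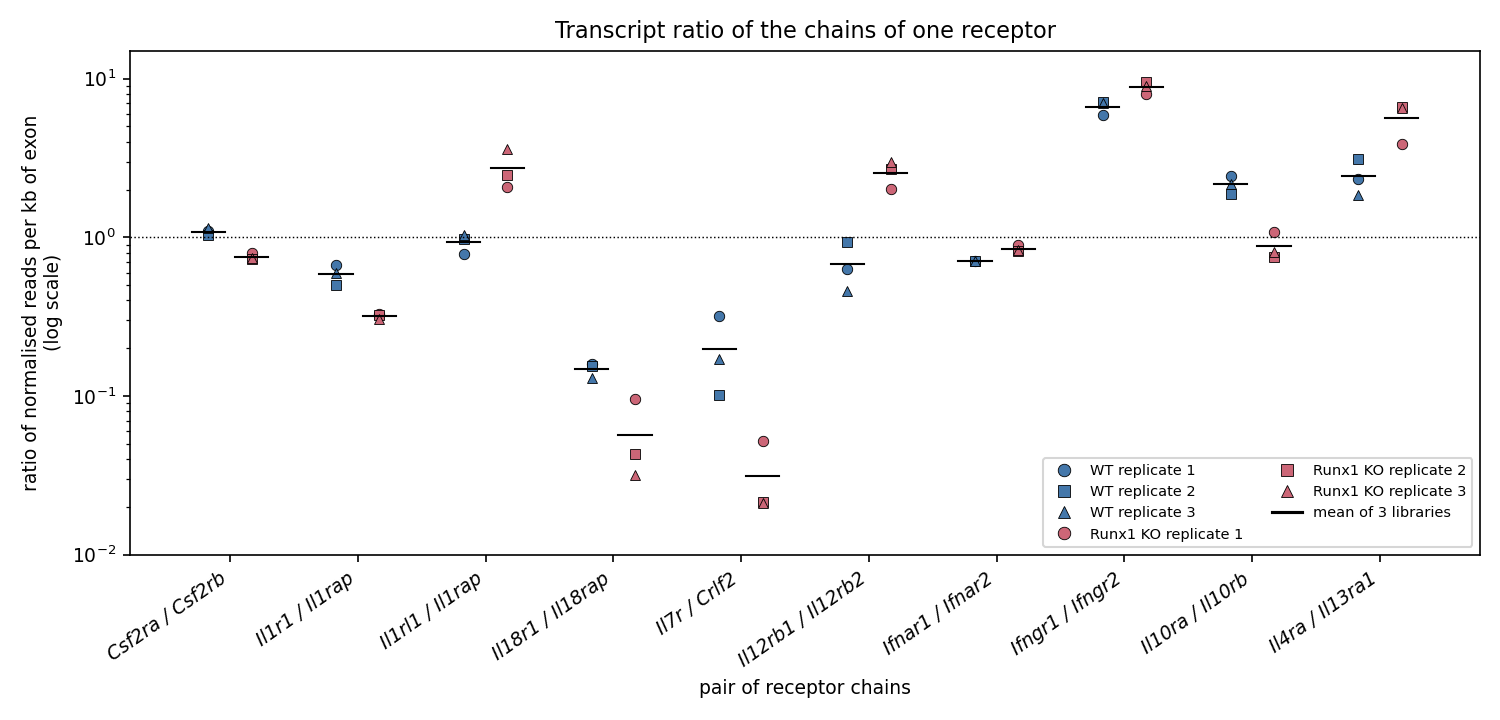
Ratio of normalised reads per kb of exon between 2 chains of the same receptor, in each library, on a log scale; the dotted line marks equal levels and black lines the mean of 3 libraries. Il1rl1 over Il1rap and Il12rb1 over Il12rb2 lie above 2 in every library labelled Runx1 KO, and Il10ra over Il10rb is 1.88 or more in every WT library and 1.07 or less in the others.

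Of the 7 receptor chains for colony-stimulating factors, IL-3 and IL-5, 1 passed the test. Csf2ra (ENSMUSG00000059326, chr19:61223957-61228429), the binding chain for GM-CSF, was the member of the common beta chain family that fell, from 2979.7, 2643 and 2533 normalised reads to 2083, 1738 and 1613 (log2 change -0.59, SE 0.11, limma adjusted p 0.0119). The groups did not overlap, and without Runx1 KO replicate 2 the adjusted p was 0.0534. Csf2rb, the common beta chain itself, was at 6345 ± 656 and 6073 ± 554 (SD, n = 3; log2 change -0.06, SE 0.10, adjusted p 0.681). The ratio of Csf2ra to Csf2rb per kilobase of exon was 1.03 to 1.14 under WT and 0.732 to 0.793 under Runx1 KO.

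Il3ra, the binding chain for IL-3, had 698, 734 and 867 normalised reads against 1205, 907 and 816, with overlap (log2 change 0.33, SE 0.16, adjusted p 0.167). Csf2rb2, the second beta chain of the mouse that serves IL-3 alone, had 1177, 1069 and 925 against 1604, 1215 and 1102 (log2 change 0.29, adjusted p 0.208). Csf2rb2 lies 20.0 kb from Csf2rb, and 18.4% of its 50-base words also occur in Csf2rb transcripts, so reads could be split between them. Il5ra, the eosinophil chain for IL-5, was low in all libraries, at 95.1 ± 9.86 and 83.4 ± 20.8 (log2 change -0.21, limma adjusted p 0.527). Among 8 eosinophil markers, 3 were lower and 1 higher (50% called, against 21.9% of all tested genes). Their summed level was 14909.5 to 23098 under WT and 8158 to 12801 under Runx1 KO.

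Csf1r and Csf3r, the receptors of macrophage and granulocyte lineages, were among the most abundant receptors per kilobase of exon. Csf3r had 12986, 6923 and 8078 normalised reads under WT and 9613, 8041 and 7459 under Runx1 KO (log2 change -0.11, SE 0.23, adjusted p 0.751). Csf1r had 11325, 8809 and 11201 against 10378, 7173 and 7467 (log2 change -0.34, SE 0.16, adjusted p 0.176), and passed without Runx1 KO replicate 1 (log2 change -0.50, adjusted p 0.0287). In both genes the groups overlapped. Of the exon bases of Csf1r, 15.1% overlap Hmgxb3 on the opposite strand, so its count is uncertain in the same way as that of Il12rb2. Among 12 neutrophil markers, 8 were called, all lower (66.7%, where 11.3% of all tested genes were lower). Their summed levels were 314456 to 402051 under WT and 159054 to 219309 under Runx1 KO.

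Per kilobase of exon, the order of receptor levels under WT began with Ifngr1 (2750.1 ± 113), Csf3r (2585 ± 892) and Csf1r (1809 ± 246), followed by Csf2ra (947 ± 81.0) and Csf2rb (872 ± 90.2). The libraries of Csf3r overlapped with those of both Ifngr1 and Csf1r, and those of Csf2ra with those of Csf2rb. The order ended with Il5ra (26.6 ± 2.76), Lifr (15.3 ± 2.53) and Il9r (4.10 ± 0.796). Under Runx1 KO the lowest were Il9r (1.45 ± 1.34) and Il2ra (1.75 ± 2.16), whose spreads overlap.

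Other genes of the pathway were read from 3 lists. Of 16 tested further cytokine receptors, 2 were higher and 4 lower (37.5% called, against 21.9% of all tested genes). Of those called, the 4 with the largest change were all lower: Il31ra, the IL-31 receptor, fell from 282, 307 and 287 normalised reads to 31.4, 15.9 and 22.9 (log2 change -3.64, SE 0.25, limma adjusted p 7.76e-04), and Il1r2, Ifnlr1 and Il17rb had log2 changes of -3.52, -2.11 and -1.34. Of 18 tested ligands, 3 were higher and 2 lower, and the share called, 27.8%, was near the 21.9% of all tested genes. Il6 was at 49.5, 26.2 and 56.6 normalised reads under WT and at 1 recovered read in each library labelled Runx1 KO. Il18bp, the soluble antagonist of IL-18, Il12a, the p35 subunit of IL-12, and Tslp, the ligand of Crlf2 with Il7r, had log2 changes of 0.91, 0.84 and 0.69 (limma adjusted p 0.0154, 0.0465 and 0.0235).

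Of 15 tested JAK, STAT and SOCS genes, which relay and dampen the receptors' signal, 7 were called, all higher (46.7%, where 10.6% of all tested genes were higher). An unadjusted limma p under 0.05 was reached by 9 of the 15, and by 5810 of all 15410 tested genes. Cish, Stat2 and Stat5b had log2 changes of 0.97, 0.51 and 0.43 (limma adjusted p 0.0201, 0.00486 and 0.00583). The number of calls in this list was 4 without WT replicate 2 or Runx1 KO replicate 2, and in the ligand list 2 without Runx1 KO replicate 2 or 3 and 3 without WT replicate 3.

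**Figure D5:**
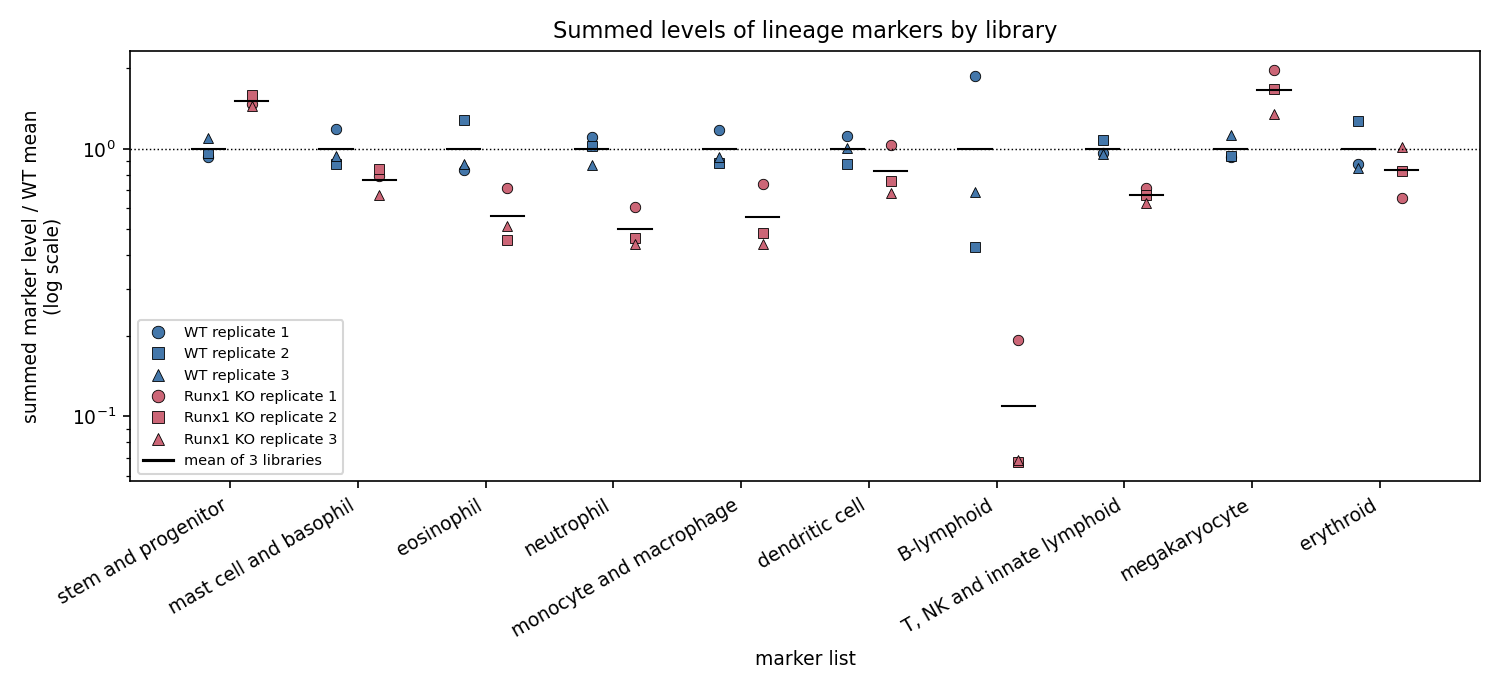
Summed normalised read counts of 10 lists of lineage markers in each library, divided by the mean of the WT libraries, on a log scale; the dotted line is the WT mean. Stem and progenitor markers lie above the WT mean and B-lymphoid markers far below it in the 3 libraries labelled Runx1 KO.

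Over the 10 marker lists, stem and progenitor markers were higher under Runx1 KO (8 of 11 called, all higher), and 4 of 6 tested megakaryocyte markers were higher. Over all tested genes, 10.6% were higher and 11.3% lower. Pf4 of the megakaryocyte list went the other way without a call, at 428 to 477 under WT and 153 to 391 under Runx1 KO (log2 change -0.89, limma adjusted p 0.0782). No list had a marker at 0 in all libraries of a group. Of 10 dendritic cell markers 1 was called, lower, a share below the 21.9% of all tested genes. Of 8 erythroid markers, Hbb-bt, Hba-a1 and Alas2, which serve haemoglobin synthesis, were lower, while Klf1 and Epor, the erythroid transcription factor and the erythropoietin receptor, had log2 changes of 0.74 and 0.68 and were not called. How far these shifts account for the receptors' values was not tested.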

How the data were processed

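Poly-A RNA of c-Kit-positive bone marrow cells was sequenced in 3 WT libraries and in 3 that carry the label Runx1 KO. Per the submitters' processing notes, HISAT2 and HTSeq 0.9.1 were used and the builds were named mm10 and GRCm38; their roles, the annotation and the strand setting are not given in the sources used here. The deposited values are a signal: read counts divided by the authors by 1 size factor per library. In each file 100% of values were whole multiples of the smallest, within 0.001, which gave recovered reads; the lowest total of a listed gene was 10 reads over the 6 libraries. The floor of 3 reads was 2.88 to 3.14 normalised reads and covers counting error only.

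The fit used limma 3.58.1 (eBayes with a mean trend, R 4.3.3) on log2(value + 1), a scale that understates changes of low genes, over 15410 genes that passed filterByExpr (minimum count 10, total 15), two-sided, Benjamini-Hochberg adjusted over all of them. Symbols were found for 20077 of 20097 identifiers and GENCODE M21 held 20090; exon lengths are unions over transcripts. With 3 libraries a group an exact permutation p cannot go below 0.1, so none is given; separate animals are not stated, so p-values measure the spread between these libraries. Alternatives were edgeR 4.0.16, DESeq2 1.42.0 and limma-voom on recovered reads, the replicate block, other filters, pseudocounts and scalings, and leaving out each library. The test was checked on simulated data with the same dispersion for every gene and no outlying library. That check does not cover groups as wide as some of those seen here. The members, lists and the rule for naming genes (all members; from each pathway list at most 4 called genes by size of change) were chosen with earlier results of these data known. A gene that this rule names is not reported here.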

Additional observations from a re-analysis of the deposited data

How the results depend on the processing

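Over the 11 settings that kept all 6 libraries, 16 to 19 receptors were called against 17. Of 395 receptor values, 383 kept both their sign and their side of the threshold, and 5 changed sign without a call in either fit. Another 3 lost the call (Il7r in limma-voom, Il13ra1 in 2 settings), and 4 gained it (Ifnar2 with library totals, Csf1r and Csf2rb2 under the block). The sign changes were of small values: Csf2rb 0.0205 with library totals, and Il6st 0.00174 with TMM scaling, 0.0106 in edgeR, 0.0748 with library totals and 0.00215 in edgeR with the replicate block. Library totals moved the median of all genes by 0.08 upwards and gave 63.5% higher among all calls, against 48.4%; 9 receptors were then higher and 8 lower. DESeq2 called 10 further cytokine receptors, against 6.

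Leaving out a library gave 8 to 19 called receptors (5 to 7 higher, 3 to 12 lower), 2 to 6 ligands, 4 to 8 further cytokine receptors and 4 to 6 JAK, STAT and SOCS genes. Log2 changes then ran from -0.146 to 0.00248 for Csf2rb, -0.299 to 0.154 for Csf3r, -0.313 to 0.103 for Il12rb2, -0.00027 to 0.469 for Il27ra, -0.0846 to 0.132 for Il4ra and -0.203 to 0.101 for Il6st; the lower number of libraries is part of each such fit, and other causes were not tested.

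The numbers 1 to 3 of the libraries did not pair the groups: deviations of same-numbered libraries correlated at 0.29, 0.13 and -0.01, and 1 of 3 WT libraries and 2 of 3 labelled Runx1 KO correlated best with their own number. The replicate block called 19 receptors in limma and 18 in edgeR, 17 of them shared with the fit without it in both, and 9 ligands in both tools against 5.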
